A study of Mus musculus with 4 samples.

Results

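Serpina6, Hsd11b1 and Nr3c1 code for the plasma carrier, the reactivating enzyme and the receptor of glucocorticoids. They were followed as 3 of the 8251 genes that the array's annotation names by a single symbol, through every probe set annotated to one of them alone. This gave 4 of 12422 non-control probe sets, 2 for Serpina6 and 1 each for Hsd11b1 and Nr3c1. All 4 were called Present on all 4 arrays. The study hybridised liver RNA of male C57BL/6 mice to Affymetrix MG_U74Av2 GeneChips, short-oligonucleotide arrays that report a fluorescence intensity (Signal) and a detection call for each probe set. The groups were mice without adrenal glands at zeitgeber time (ZT) 14, the same at ZT2, sham-operated mice at ZT14 and sham-operated mice at ZT2, with 1 array for each group. ZT counts the hours after lights on. The adrenals of the ADX mice were taken out on both sides through the back under ketamine and xylazine anaesthesia, and these mice drank 0.9% NaCl, while the sham-operated controls drank water. All groups ate standard chow freely. The salt in the drinking water therefore differed between ADX and sham mice together with the operation, and the 2 cannot be told apart. The labels give neither the animals' age nor the number of livers behind an array.

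Corticosterone, the main glucocorticoid of mice, is made in the adrenal cortex with a daily rhythm. In plasma most of it is carried by corticosteroid-binding globulin, a serpin that the liver secretes. In liver cells 11β-hydroxysteroid dehydrogenase type 1, in the endoplasmic reticulum, turns the inert 11-dehydrocorticosterone back into corticosterone. The hormone binds the glucocorticoid receptor, which waits in the cytoplasm in a complex with heat shock proteins and immunophilins, enters the nucleus and regulates genes of glucose output, amino acid breakdown and many others.

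The signals of each array were scaled to a common trimmed mean, set to a floor of 3.91 units where lower, and put on the log2 scale. A call of a difference needed a fold of 2 or more and a Present call on the brighter of the arrays. This is a rule of size: a comparison of 1 array with 1 allows no test and has no replicate check. Only an additive fit over all 4 arrays, given after the members' values, gives p-values. Present calls covered 44.4% to 47.0% of probe sets, and the ratio of 3' to 5' signal was 1.69 to 1.89 for the actin control and 0.912 to 1.03 for the Gapdh control. All 8 hepatocyte markers were Present on each array, with summed signals of 34373 in ADX ZT14, 34151 in ADX ZT2, 36290 in sham ZT14 and 34882 in sham ZT2. Of 7 adrenal and pituitary genes on the array 1 to 2 were Present (Cyp21a1 and, on 3 arrays, Gh), and Cyp11a1, Star and Mc2r on no array. Of 6 fat cell genes 1 to 2 were Present (Fabp4 and, on 3 arrays, Lipe), and Adipoq, Retn, Lep and Cidec on no array. Whole liver was measured, so fewer cells of a type and less RNA per cell cannot be told apart.

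Serpina6, which encodes corticosteroid-binding globulin, had its highest signal in ADX livers at ZT14, and it was the only one of the 3 genes to pass 2-fold in any comparison. Its brighter probe set, 96227_at, is described in the files as corticosteroid binding globulin. That probe set had a signal of 2324 in ADX ZT14, 616 in ADX ZT2, 1119 in sham ZT14 and 724 in sham ZT2. The ADX ZT14 array stood above the other 3, which lay within 616 to 1119, and both ZT14 arrays lay above both ZT2 arrays. The dimmer probe set, 161326_f_at, derives from a 3' end cDNA clone, and its suffix marks probes that may also match related sequences. It had a signal of 107 in ADX ZT14, 52.4 in ADX ZT2, 78.5 in sham ZT14 and 41.5 in sham ZT2. Again ADX ZT14 was highest and both ZT14 arrays lay above both ZT2 arrays, but the order of the ZT2 arrays was turned round. On the ADX ZT2 array its detection p-value was 0.0394, equal to the largest of any Present call there, so that call sat at the edge of Present.

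**Figure D1:**
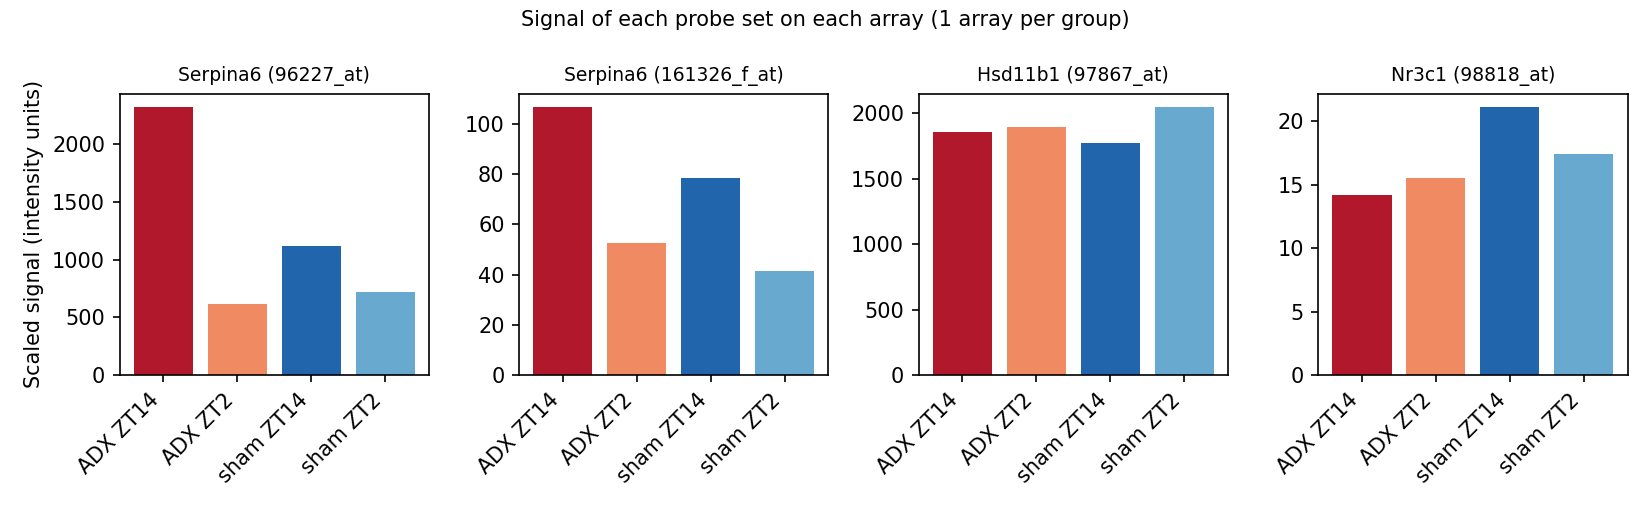
Scaled signal (intensity units, linear axes from 0, a scale of its own in each panel) of the 4 probe sets of Serpina6, Hsd11b1 and Nr3c1 in ADX ZT14, ADX ZT2, sham ZT14 and sham ZT2. Each bar is 1 array and has no error bar. Both Serpina6 probe sets were highest in ADX ZT14 (2324 and 107), Hsd11b1 stayed within 1772 to 2048, and Nr3c1 within 14.2 to 21.1.

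Between the times of day, Serpina6 was higher at ZT14 than at ZT2 in ADX livers by both probe sets. The log2 difference was 1.91 (3.77-fold) for 96227_at and 1.03 (2.04-fold) for 161326_f_at. In this comparison 5.34% of the probe sets Present on either array were called, 2.89% higher and 2.45% lower (177 and 150 probe sets, against 147 and 201 after quantile normalization). Among the 5167 probe sets Present on both ADX arrays, 12 were as much higher at ZT14 as 96227_at, that one included. The call of 161326_f_at lay at the threshold and was lost under each other scaling, at log2 0.993 with signals as deposited, 0.998 after quantile normalization and 0.999 after median scaling.

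In sham livers Serpina6 was also brighter at ZT14, but neither probe set passed 2-fold. The log2 difference was 0.63 (1.55-fold) for 96227_at and 0.92 (1.89-fold) for 161326_f_at. Called in this comparison were 5.95% of probe sets, 3.42% higher and 2.53% lower (211 and 156, against 161 and 193 after quantile normalization). For scale, the robust SD of the sham day-night difference was 0.23 over the 419 probe sets Present on both sham arrays and within 2-fold of the brightness of 96227_at, and 0.36 over the 2371 near 161326_f_at. These SDs describe the scatter across probe sets, which includes true differences, and are no replicate error.

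The 2 probe sets disagreed on whether the day-night difference of Serpina6 was wider in ADX than in sham livers. Taken as ADX minus sham, the difference of the day-night log2 differences was 1.29 for 96227_at. Of the 4877 probe sets Present on all 4 arrays, 59 (1.21%), that one included, had one at least as large in size. For 161326_f_at it was 0.11, a size met or passed by 75.3% of them. Neither value can be tested. The mean of both probe sets, an alternative chosen after seeing the data, was 0.70.

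Between the operations, Serpina6 was higher in ADX than in sham livers at ZT14 by 96227_at, with a log2 difference of 1.05 (2.08-fold). By 161326_f_at the difference was 0.45 (1.36-fold) and did not pass. Called at ZT14 were 4.07% of probe sets, 2.45% higher and 1.62% lower in ADX (147 and 97, against 118 and 120 after quantile normalization and 106 and 137 as deposited). The call of 96227_at was lost with signals as deposited (0.93) and with the mean of both probe sets (0.75). At ZT2 the log2 difference was -0.23 for 96227_at and 0.34 for 161326_f_at, opposite in sign and both under 2-fold. Called at ZT2 were 2.56% of probe sets, 1.73% higher and 0.832% lower in ADX (108 and 52, against 68 and 80 after quantile normalization and 69 and 90 as deposited). The ADX ZT14 array enters both the day-night comparison in ADX and the comparison of operations at ZT14, so the 2 Serpina6 calls there share it. The summed signal of 3 red cell markers was 1961 on that array, against 1471 in ADX ZT2, 1054 in sham ZT14 and 1758 in sham ZT2. The sum is mostly Hba-a1, which was highest there at 1789. Alas2, the other marker Present on all arrays, was lowest there at 171, against 207 in ADX ZT2, 178 in sham ZT14 and 203 in sham ZT2. Epb42 was Present on no array, and the part of blood in the Serpina6 values was not tested.

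**Figure D2:**
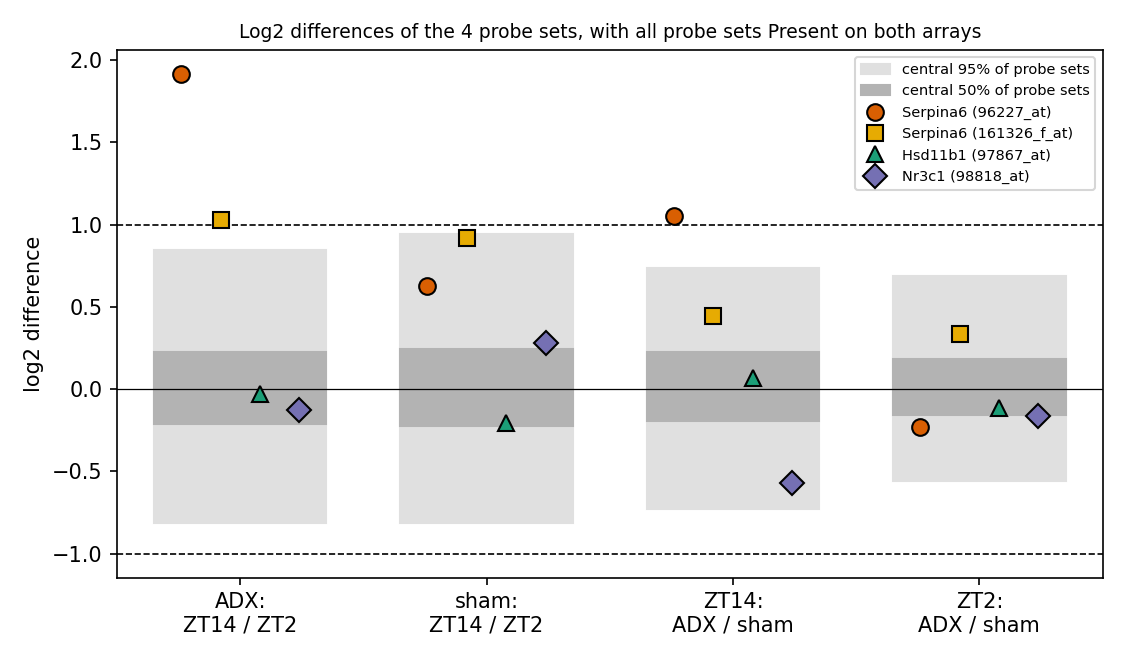
Log2 difference of the 4 probe sets (symbols) in the 4 comparisons, each named as the group on top over its counterpart. Grey boxes hold the central 95% and 50% of all probe sets Present on both arrays, and dashed lines mark 2-fold. Serpina6 lay past 2-fold in ADX over the day (1.91 and 1.03) and, by 1 probe set, between operations at ZT14 (1.05), while Hsd11b1 and Nr3c1 lay inside the 95% box in all 4.

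Hsd11b1, which encodes 11β-hydroxysteroid dehydrogenase type 1, had nearly the same signal on the 4 arrays. Probe set 97867_at read 1857 in ADX ZT14, 1894 in ADX ZT2, 1772 in sham ZT14 and 2048 in sham ZT2. The ADX arrays lay between the sham arrays, and the highest and lowest differed 1.16-fold. Of the 4877 probe sets Present on all arrays, 87.2% spanned at least as much. The log2 difference was -0.03 between ZT14 and ZT2 in ADX and -0.21 in sham, 0.07 between ADX and sham at ZT14 and -0.11 at ZT2. Over the scalings and floors tried, the value in ADX ran from -0.06 to 0.07 and that between operations at ZT14 from -0.06 to 0.11, so these have no settled sign, while the other 2 were negative throughout. Without replicates this shows only that no 2-fold difference was seen, not that the levels were equal.

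The 300 bases around a start of Hsd11b1 are shown, the only member whose promoter was searched. Promoters of the other members were not searched, and nothing is said about them. In this window 7 motifs of clock and hormone factors or of promoters in general could be looked for. The sequence is RefSeq's (GRCm38.p6, chr1:193242311-193242610, minus strand), from 250 bases before to 50 after the start. Capitals mark the only match.
Hsd11b1: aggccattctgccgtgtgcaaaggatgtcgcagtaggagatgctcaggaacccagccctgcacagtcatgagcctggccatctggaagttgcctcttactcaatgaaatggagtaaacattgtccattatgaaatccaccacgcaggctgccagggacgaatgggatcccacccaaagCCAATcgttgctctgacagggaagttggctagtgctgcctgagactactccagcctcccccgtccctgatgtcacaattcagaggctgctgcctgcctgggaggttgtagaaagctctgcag

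Both strands were searched. The match was the CCAAT box (CCAAT), 72 bases before the start, which 37.4% of 32851 promoters of the same length hold. The window held no glucocorticoid receptor half-site (AGAACA, in 19.0% of promoters), no E-box (CACGTG, 7.15%), no D-box (TTATGTAA, 0.938%), no Rev-erb and ROR half-site (AGGTCA, 16.3%), no C/EBP core (TTGCGCAA, 0.183%) and no TATA box (TATAAA, 13.6%). The full receptor palindrome, which contains the half-site (AGAACA and TGTTCT parted by 3 bases), was also not found, and 3 of the 32851 promoters hold it. The CCAAT match overlaps no other. The start used lies inside the gene, which spans 193221640 to 193264045 on chromosome 1, and not at its upstream end. These are matches of letters in 1 window and say nothing about binding.

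Nr3c1, which encodes the glucocorticoid receptor, was measured by 98818_at alone, at signals not far above the floor. They were 14.2 in ADX ZT14, 15.5 in ADX ZT2, 21.1 in sham ZT14 and 17.4 in sham ZT2, or 3.63 to 5.40 times the floor. Both ADX arrays lay below both sham arrays. The log2 difference between ADX and sham was -0.57 (1.49-fold lower) at ZT14 and -0.16 at ZT2, both under 2-fold. Between ZT14 and ZT2 it was -0.13 in ADX and 0.28 in sham. At this brightness the scatter was wide, with a robust SD of 0.43 at ZT14 over the 1268 probe sets Present on both arrays and within 2-fold of its signal. Differences of the size seen at ZT14 were met or passed by 10.7% of the 5098 probe sets Present on both ZT14 arrays. With a floor of 20 units, which covers all but 1 of its values, the difference between ADX and sham at ZT14 was -0.078, and that over the day 0 in ADX and 0.078 in sham.

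An additive fit of time and operation over all 4 arrays, with limma and Benjamini-Hochberg adjustment over 5872 probe sets Present on at least 2 arrays, called none of the 4 probe sets. For the effect of time, taking ADX and sham arrays together, 161326_f_at of Serpina6 had a log2 difference of 0.97 (SE 0.16, adjusted p = 0.230) and 96227_at one of 1.27 (SE 0.36, adjusted p = 0.325), each higher at ZT14 in both pairs. The fit called 0.0341% of probe sets for time (2 probe sets, with 773 at an unadjusted p under 0.05). For the operation it called 0%, that is 0 probe sets by limma, with 329 at an unadjusted p under 0.05. The operation effects of the members were 0.41 and 0.39 for Serpina6, -0.02 for Hsd11b1 and -0.37 for Nr3c1, with adjusted p from 0.830 to 0.995. A single degree of freedom was left for the residual, into which an interaction of time and operation would also fall. The arrays stand for mice of different groups, and no group had a replicate array. With so little to estimate a variance from, limma drew that of each probe set toward a value shared by all 5872. The SEs and p-values therefore reflect the scatter of other probe sets as well as that of the probe set itself. In the scatter of these 4 arrays, animal, technical and interaction differences cannot be told apart. When the variance was allowed to follow the signal, limma called 154 probe sets for time, against 2 in the main fit. Both Serpina6 probe sets were among them (adjusted p = 0.0475 for 96227_at and 0.0344 for 161326_f_at), so their passing depends on the variance model.

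Among other genes of glucocorticoid supply and metabolism, 11 or 12 of those measured passed 2-fold in neither direction in each comparison. Of 26 further genes listed, 15 were on the array and 12 were Present on at least 1 array. H6pd, which supplies the NADPH that 11β-hydroxysteroid dehydrogenase type 1 uses, read 355 in ADX ZT14, 410 in ADX ZT2, 329 in sham ZT14 and 451 in sham ZT2, with day-night log2 differences of -0.21 in ADX and -0.45 in sham, both under 2-fold. Both ZT14 arrays lay below both ZT2 arrays. Over the day Akr1c6, a hydroxysteroid dehydrogenase, was at -0.08 in ADX and 0.00 in sham, and Cyp3a11, a steroid-hydroxylating cytochrome P450, at -0.01 and -0.06. Hsd3b5, a male-biased liver 3-ketosteroid reductase, was at -0.92 over the day in ADX and -0.58 in sham, without passing. In this list 1 gene of 12 passed in each of 3 comparisons, all at dim signals, beside 2.56% to 5.95% of all probe sets in either direction. The drug exporter gene Abcb1a was at least 2.40-fold higher at ZT14 in ADX, with a signal of 9.39 there and no Present call elsewhere. Shbg, which encodes sex hormone-binding globulin, was Present only in sham ZT2, at 16.3. Its signal in ADX ZT14 was higher, at 18.4, and was called Absent. Shbg was at least 2.31-fold lower at ZT14 in sham and at least 4.17-fold lower in ADX at ZT2. Both folds rest on that 1 Present call. The list's medians were -0.12 and -0.10 over the day in ADX and sham, and -0.03 and -0.04 for ADX against sham at ZT14 and ZT2, beside 0.01, 0.00, 0.02 and 0.01 over all probe sets Present on at least 1 array.

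Among genes of the receptor's chaperone complex, 1 gene, Fkbp5, passed 2-fold, in 2 of the 4 comparisons. All 16 of the 21 listed genes that the array holds were measured. Fkbp5, an immunophilin that lowers the receptor's affinity for hormone and is itself a glucocorticoid target, read 60.5 in ADX ZT14, 40.1 in ADX ZT2, 161 in sham ZT14 and 45.8 in sham ZT2. The sham ZT14 array stood above the other 3. It was 3.51-fold higher at ZT14 in sham, where 1 of 16 genes passed higher and 0 lower, and 2.66-fold lower in ADX at ZT14, where 0 passed higher and 1 lower. Of all probe sets Present on either array, 3.42% passed higher at ZT14 in sham and 1.62% lower in ADX at ZT14. Those shares include dimmer probe sets than the ones that stand for the 16 genes. A count of 1 gene in 16 is no result about the list. In ADX over the day (Fkbp5 at 0.59) and between operations at ZT2 (-0.19) no gene of the list passed. The co-chaperone Dnajb1 was at log2 0.82 over the day in ADX and 0.99 in sham, short of 2-fold, and Dnaja1 at 0.33 and 0.77. The receptor's folding chaperone Hsp90aa1 was at 0.21 and 0.11, and the immunophilin Fkbp4, which aids its transport, at 0.08 and 0.22. The list's medians were 0.07, 0.08, -0.03 and 0.06 in the order ADX day-night, sham day-night, ADX against sham at ZT14 and at ZT2.

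Of 30 coregulators and partner factors of the receptor, 24 were on the array and 21 were measured, and 0 passed in ADX over the day or between operations at ZT2. In sham over the day 1 passed higher and 1 lower. Foxa3, a liver forkhead factor, was 2.24-fold higher at ZT14 in sham, with signals of 135 at ZT14 and 60.3 at ZT2. Ncoa3, a steroid receptor coactivator, was at least 2.52-fold lower at ZT14 in sham and at least 2.77-fold higher in ADX at ZT14, where it was the 1 gene to pass. Both Ncoa3 folds rest on the sham ZT14 array, on which it was not Present, and its highest signal was 12.7. Cebpb, a partner factor of the receptor on liver genes, was at 0.90 over the day in ADX and 0.68 in sham, under 2-fold. For comparison, 5.34% of all probe sets passed in ADX over the day and 5.95% in sham over the day. Between operations 4.07% passed at ZT14 and 2.56% at ZT2. Counts this low among 21 genes are no result about the list. The list's medians were 0.04 and -0.12 over the day in ADX and sham, and -0.03 at both times for ADX against sham.

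Liver glucocorticoid targets went both ways. Of 32 listed, which include Fkbp5 of the chaperone list, 26 were measured. In sham over the day 8 passed higher at ZT14 (Lpin1, Fkbp5, Dusp1, Mt1, Mt2, Zbtb16, St3gal5 and Slc37a4) and 3 lower (G6pc, Igfbp1 and Pdk4), with a median of 0.27. In ADX 4 passed higher (Mt1, Mt2, Pck1 and St3gal5) and 3 lower (Klf9, Igfbp1 and Bcl6), with a median of 0.12. Klf9, a hormone-responsive transcription factor, was at -1.04 in ADX by one probe set and at -0.28 by another. Against sham at ZT14, 1 passed higher in ADX (Mt1) and 5 lower (Lpin1, Zbtb16, St3gal5, Fkbp5 and Slc37a4), with a median of -0.31. Errfi1, a feedback inhibitor of growth factor receptors, was at -0.63 there and at -1.19 by its dimmer probe set. At ZT2, 1 passed higher (Cdkn1a) and 3 lower (Igfbp1, Pck1 and Lpin1), with a median of -0.21. At ZT14 Serpina6 by 96227_at was called in the direction of Mt1, and opposite to the other 5 called targets. That Serpina6 call was lost with signals as deposited (0.93) and with the mean of both probe sets (0.75). By 161326_f_at there was none (0.45). All these values compare the same ADX ZT14 array with the same sham ZT14 array, and the contrast was not tested. Of all probe sets, 5.34% passed in either direction in ADX over the day, 5.95% in sham over the day, 4.07% between operations at ZT14 and 2.56% at ZT2. The directions of the targets were known when the list was drawn up, so their counts and their contrast with Serpina6 are description only.

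**Figure D3:**
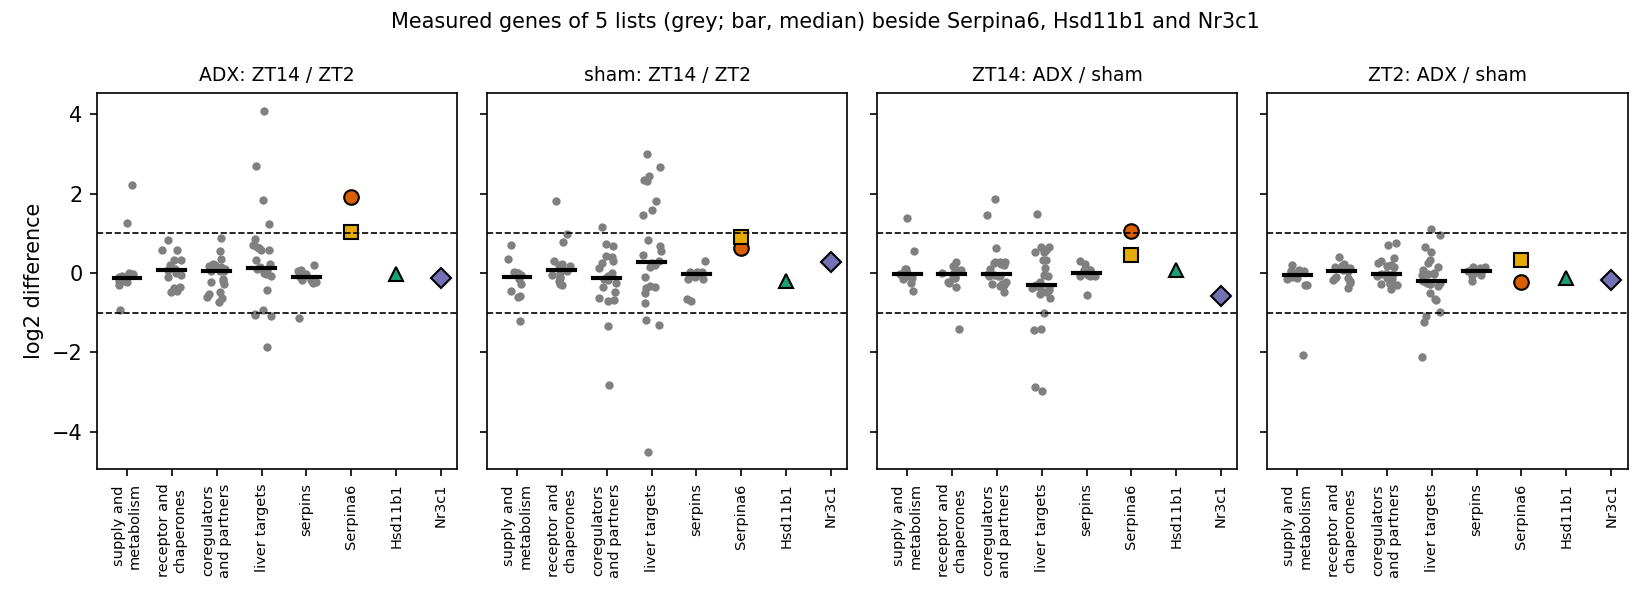
Log2 difference of each measured gene of 5 lists (grey points, with a black bar at the median) and of Serpina6, Hsd11b1 and Nr3c1 (coloured symbols, as in the plot of log2 differences) in the 4 comparisons, with dashed lines at 2-fold. The glucocorticoid targets reached from -4.50 to 4.10, with medians from -0.31 to 0.27, while Hsd11b1 and Nr3c1 lay between the dashed lines throughout.

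Other serpins, the protein family to which corticosteroid-binding globulin belongs, were measured beside it. Of 25 listed, 12 were on the array and 11 were measured. In ADX over the day 0 passed higher and 1 lower, and in the other 3 comparisons 0 of 11 passed. With 1.73% to 3.42% of all probe sets higher and 0.832% to 2.53% lower, counts this low are no result about the family. With the mean of all probe sets of a gene 1 passed at ZT14 between operations, Serpinf1, at 2.59 by a probe set Absent on every array and at -0.06 by its brighter one. The gene past 2-fold in ADX over the day was Serpina12, the adipokine vaspin, with a signal of 129 in ADX ZT14, 285 in ADX ZT2, 190 in sham ZT14 and 297 in sham ZT2, and it was 2.21-fold lower at ZT14 in ADX. Its day-night log2 difference was -0.65 in sham, the same sign under 2-fold. Serpina10, an inhibitor of coagulation factors and the protein-coding gene next to Serpina6 on one side, was at 0.19 in ADX and 0.02 in sham. The α1-antitrypsin probe set named Serpina1b, which may read several near-identical copies, was at -0.08 and -0.03. The list's medians were -0.10 and -0.03 over the day in ADX and sham, and 0.01 and 0.04 for ADX against sham at ZT14 and ZT2.

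The genes whose pattern over the 4 arrays lay closest to Serpina6 were Dclre1a, Gstt2, Slc25a47, Nrep and Slc7a2. Likeness was the root mean square difference between log2 signals, each centred on its mean over the 4 arrays, among 3888 other genes Present on all arrays. Dclre1a, a DNA crosslink repair nuclease, was closest at 0.17, with signals of 47.8 in ADX ZT14, 15.4 in ADX ZT2, 28.7 in sham ZT14 and 14.3 in sham ZT2. Gstt2, a glutathione transferase, lay at 0.21 with 512 in ADX ZT14, 206 in ADX ZT2, 315 in sham ZT14 and 202 in sham ZT2. Both were highest in ADX ZT14 and next highest in sham ZT14, as Serpina6 was. Slc25a47, a mitochondrial carrier of liver, lay at 0.25, and Nrep and the cationic amino acid transporter gene Slc7a2 at 0.26 each. Their signals in ADX ZT14 were 748, 236 and 287, against 489, 135 and 215 in sham ZT14. The other Serpina6 probe set lay at 0.33, with 13 genes closer than it. Hsd11b1 and Nr3c1 spanned less than 2-fold, and no genes were matched to them.

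**Figure D4:**
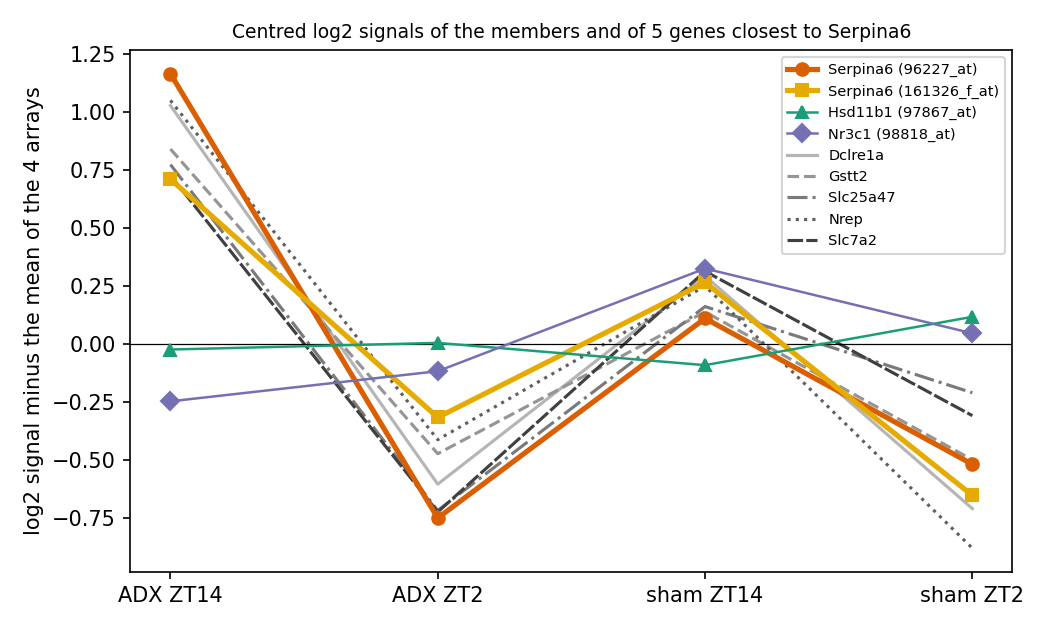
Log2 signal minus its mean over the 4 arrays for the probe sets of Serpina6, Hsd11b1 and Nr3c1 (coloured lines) and for the 5 genes closest to Serpina6 by 96227_at (grey lines), in ADX ZT14, ADX ZT2, sham ZT14 and sham ZT2. Lines join values of 1 probe set and each value is 1 array. The grey lines follow Serpina6 because they were chosen for that, at distances of 0.17 to 0.26.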

How the data were processed

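Liver RNA was measured on 4 arrays, 1 for each group, with group and time read from each title. Per the file headers, each deposited table gives Affymetrix signals from single-array analysis (linear intensity values) beside detection calls and p-values. The software and its scaling target were not given in the sources used. The series table holds the same intensities (largest difference 0 over 12488 probe sets).

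Each array was multiplied by 0.925 to 1.07 to a common 2% trimmed mean. The floor of 3.91 units was the higher of the lowest Present and the median Absent signal. The 66 control probe sets were then left out. A gene was represented by its brightest probe set. Symbols came from the platform annotation (10839 of 10855 single-gene probe sets were found in RefSeq GRCm38.p6). A fold whose dimmer array was not Present is a lower bound. Percentages called are over probe sets Present on either array compared. The robust SD is the scaled median absolute deviation.

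The additive fit used limma 3.58.1 (lmFit, eBayes) in R 4.3.3, and other steps Python 3.11.15, NumPy 2.4.6, pandas 2.3.3 and matplotlib 3.10.9. Calls and fit were run on simulated data with equal noise for every probe set and the same time shifts in ADX and sham. The shifted probe sets were Present on all 4 arrays. Of 100 shifted by log2 1.5 up or down, 97 were called in ADX, 93 in sham and 100 by the fit. The real arrays need not meet that setting, so this recovery may not hold for them. The number of arrays limits the precision. Alternatives changed the scaling, floor, detection rule, probe set and variance model. Named genes were the members, list genes past 2-fold or used as examples, the 5 nearest patterns to a member spanning 2-fold, and neighbours on the chromosome. The members and lists were chosen with earlier results of these data known.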

Additional observations from a re-analysis of the deposited data

Results flagged for a closer look

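Nr3c1 drew attention because its day-night log2 difference was opposite in sign in the pairs, -0.13 in ADX and 0.28 in sham. The difference of the differences, ADX minus sham, was -0.41. With a floor of 20 units the values were 0 in ADX and 0.078 in sham, with no opposite sign, and the difference of the differences was -0.078. It was not tested, each pair is 1 array against 1, and 30.4% of the 4877 probe sets Present on all arrays had a difference of the differences at least as large in size.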

How the results depend on the processing

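With 1 array per group no array could be left out, and no paired analysis was possible because the groups were different mice. Over other scalings and floors the day-night log2 difference of Serpina6 by 96227_at in ADX stayed past 2-fold, and was 1.47 as the mean of both probe sets. The calls of Serpina6 that were lost are the comparison of operations at ZT14 by 96227_at (0.93 as deposited, 0.75 as the mean of both probe sets) and the ADX day-night call of 161326_f_at (0.993 as deposited, 0.998 after quantile normalization, 0.999 after median scaling). The mean of both probe sets also moved the ADX minus sham day-night difference to 0.70 and the ZT2 comparison of operations to 0.052. The cause was not tested. With signals as deposited the median difference between operations over probe sets Present on all arrays was -0.11 (ZT14) and -0.17 (ZT2), against 0.014 and 0.00062 after scaling. With a floor of 20 units Nr3c1 at ZT14 moved to -0.078, since that floor covers 3 of its 4 values. The counts of probe sets past 2-fold, in the order ADX day-night, sham day-night, ADX against sham at ZT14 and at ZT2, were 327, 367, 244 and 160, against 135, 155, 54 and 21 with a floor of 20 units, 144, 182, 62 and 40 when both arrays had to be Present, and 1180, 1120, 1156 and 799 with no detection rule. The additive fit called 2 probe sets for time, against 0 with no detection filter, 1 over those Present on all 4 arrays, 0 with a floor of 20 units and 154 with a variance trend. For the operation it called 0, against 1 after quantile normalization and 1 with a variance trend. With the trend both Serpina6 probe sets passed for time at unchanged log2 differences of 1.27 and 0.97. After quantile normalization the time effect of Nr3c1 turned to -0.070 and the operation effect of Hsd11b1 to 0.0012. Counts of list genes past 2-fold moved by over 1.5 times in 14 cases, each by 1 gene, and list medians in none by more than the robust SD.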

Other observations

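The genes that lie beside the 3 members on their chromosomes were read for the same comparisons. For each member the 5 nearest protein-coding genes on either side were taken from the RefSeq gene table. Beside Hsd11b1, 4 of 10 were on the array and 2 were measured. Its direct neighbour G0s2, an inhibitor of the lipase that starts fat breakdown, read 509 in ADX ZT14, 236 in ADX ZT2, 474 in sham ZT14 and 138 in sham ZT2. Both ZT14 arrays lay above both ZT2 arrays, and G0s2 passed 2-fold higher at ZT14 in ADX (log2 1.11) and in sham (1.78), where Hsd11b1 was at -0.03 and -0.21. Plxna2, a semaphorin receptor gene, was at -0.47 over the day in ADX, and at -0.94 in sham, where the ZT14 array was not Present, so that value is a bound. Beside Serpina6, 4 of 10 were measured (Serpina10, Serpina1b, Ifi27 and Ifi27l2a) and 0 passed in any of the 4 comparisons. With 2.56% to 5.95% of all probe sets called in a comparison, counts over so few genes are no result about a locus. Beside Nr3c1, 4 of 10 were measured, and Spry4, an inhibitor of growth factor signalling, passed lower at ZT14 in sham (-1.07) and higher in ADX at ZT14 (1.14), each time against a sham ZT14 array without a Present call and at signals of at most 21.6.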
